A study of Mus musculus with 37 samples.

Results

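Genes that hold neutrophils in the bone marrow or let them leave it were followed through repeated social defeat stress: Cxcr2, Cxcr4, Csf3r, Itgam, Itgal, Itgb2, Ccr1, Selplg and Cxcl2. They were taken by gene symbol from a table of 35885 genes, and all 9 were found. Social defeat is a stress model in which an intruder mouse meets a dominant resident. The mice were wild-type C57BL/6N; age and sex are not given in the sources used here. Mice were defeated 1, 4 or 10 times at 1 defeat per day, or were defeated 10 times and then left alone for 1 week, and controls were never defeated. Polyadenylated RNA of cells flushed from the femur gave 19 marrow libraries: 3 of controls, 4 after 1 defeat, 3 after 4 defeats, 5 after 10 defeats and 4 after 10 defeats and rest. Spleen gave 18 libraries, with 4, 2, 2, 6 and 4 in the same order. Neither tissue was sorted, so every value is a mean over mixed cells, and in such bulk samples fewer cells of a type and less RNA per cell cannot be told apart.

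Neutrophils are made in the marrow and stay there while the chemokine receptor CXCR4 binds CXCL12 made by stromal cells. As they mature, CXCR2, the receptor for CXCL1, CXCL2 and related chemokines, draws them into blood, and G-CSF, acting through the receptor encoded by Csf3r, tips this balance towards release. Circulating cells roll on selectins through PSGL-1, the product of Selplg, and then arrest through integrins that pair the beta chain CD18 (Itgb2) with the alpha chain CD11b (Itgam) or CD11a (Itgal). CCR1 is a receptor for inflammatory CC chemokines on neutrophils and monocytes. Cxcr4, Itgal, Itgb2 and Selplg are also expressed by lymphocytes, whereas Cxcr2, Csf3r and Itgam mark mainly myeloid cells.

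The values are abundances per transcript length that the authors had scaled per library, without a unit name, so levels can be set beside each other between genes. Steps between low values gave an estimated 3.64 to 34.98 M reads per library. These put 828 reads or more behind each member in each marrow library except for Cxcl2, which rested on 5 to 58. In spleen the median over libraries was 298 estimated reads for Cxcr2 and 407 for Csf3r. The tissues matched their labels: the mature neutrophil genes Ly6g, Mmp8 and Mmp9 had control means of 146, 390 and 408 in marrow and of 0.37, 1.05 and 4.01 in spleen, and the B cell gene Cd79a had 268 and 708. Spleen libraries D6, D7, D9 and D10 after 10 defeats and D2 after rest stood apart. Their values summed to between 1539153 and 2652290, against 657918 to 1015794 in the other 13 spleen libraries. Their values fell with transcript length by 0.139 to 0.192 log2 units per doubling, while the slopes of the others lay between -0.057 and 0.126. Their summed erythroid markers were 701356 to 1562571 against 12240 to 406428. Spleen results are therefore given with and without these 5 libraries, a choice made after seeing the data.

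The stretch of 250 bases before the start of a gene was available from RefSeq (GRCm38.p6) for 6 of the 9 genes, and 5 are shown because their genes moved differently in marrow: Cxcr2, Itgam and Ccr1 rose after 10 defeats, while Csf3r and Cxcr4 did not pass the test there. Capitals mark every match, on either strand, to the letters of 5 motifs that are spelled out below the sequences.
Cxcr2 promoter, chr1:74153744-74153993, forward strand: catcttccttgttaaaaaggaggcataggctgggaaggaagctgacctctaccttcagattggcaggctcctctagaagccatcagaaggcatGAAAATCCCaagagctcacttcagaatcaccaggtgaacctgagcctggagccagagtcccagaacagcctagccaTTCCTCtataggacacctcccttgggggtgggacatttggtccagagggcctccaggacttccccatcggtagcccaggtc
Itgam promoter, chr7:128062390-128062639, forward strand: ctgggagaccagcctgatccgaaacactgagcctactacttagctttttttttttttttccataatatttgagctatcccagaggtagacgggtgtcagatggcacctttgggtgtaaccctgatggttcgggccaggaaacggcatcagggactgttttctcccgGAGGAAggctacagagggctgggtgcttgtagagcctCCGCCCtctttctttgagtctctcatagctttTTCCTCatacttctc
Ccr1 promoter, chr9:123968693-123968942, reverse strand: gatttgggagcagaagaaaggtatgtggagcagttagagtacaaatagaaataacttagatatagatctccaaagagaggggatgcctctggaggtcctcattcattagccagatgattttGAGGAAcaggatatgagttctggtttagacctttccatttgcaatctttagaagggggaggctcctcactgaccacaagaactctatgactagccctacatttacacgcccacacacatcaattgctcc
Csf3r promoter, chr4:126024409-126024658, forward strand: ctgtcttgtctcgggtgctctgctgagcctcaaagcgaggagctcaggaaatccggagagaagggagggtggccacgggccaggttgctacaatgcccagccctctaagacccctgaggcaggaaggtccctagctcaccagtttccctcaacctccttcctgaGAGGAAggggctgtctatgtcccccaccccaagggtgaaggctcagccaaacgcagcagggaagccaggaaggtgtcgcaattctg
Cxcr4 promoter, chr1:128592300-128592549, reverse strand: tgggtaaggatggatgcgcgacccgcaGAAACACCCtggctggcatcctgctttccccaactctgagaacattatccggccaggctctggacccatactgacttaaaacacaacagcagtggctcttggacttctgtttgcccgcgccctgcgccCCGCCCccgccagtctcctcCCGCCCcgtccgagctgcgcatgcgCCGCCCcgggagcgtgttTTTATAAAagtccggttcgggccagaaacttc
The core letters bound by the myeloid factor PU.1, GAGGAA, occurred in the windows of Cxcr2, Csf3r, Ccr1 and, at 2 places, Itgam, between 15 and 129 bases before the start. They occurred in 23.3% of 32851 windows of this length. Cxcr4 and Cxcl2 lacked them. Cxcr4 alone of the 6 held the TATA box letters TATAAA (12.4% of windows), 30 bases before the start, where they overlap a match on the opposite strand. It also held the GC box letters GGGCGG at 3 places (32.7% of windows), which Itgam and Cxcl2 held at 1 place each. The NF-kappaB letters, GGGNNTTTC, were found at 2 places before Cxcl2, 97 and 78 bases from the start, and at 1 place each before Cxcr2 and Cxcr4 (3.7% of windows). The C/EBP letters, TTNNGCAA, were in none of the 6 (9.6% of windows). These matches describe letters only. Both the genes that rose in marrow and Csf3r, which did not pass, held the PU.1 letters. Itgal, Itgb2 and Selplg are named only.

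In control mice the marrow held far more of the myeloid receptors than the spleen. With limma, 6 of the 9 genes were lower in spleen, against 46.2% of 14513 tested genes called in either direction and 19.2% called lower. Itgam differed most, by -4.49 ± 0.35 log2 units (SE; adjusted p = 8.39e-12), from 118 to 130 in marrow to 3.58 to 6.41 in spleen. Csf3r followed with -4.31 ± 0.32 (adjusted p = 2.68e-12) and Cxcr2 with -3.31 ± 0.28 (adjusted p = 2.9e-11). Ccr1 differed by -2.85 ± 0.55 (adjusted p = 6.85e-05), Cxcr4 by -1.46 ± 0.25 (adjusted p = 1.49e-05) and Itgb2 by -1.07 ± 0.28 (adjusted p = 0.00235). Itgb2 no longer passed when each library was rescaled to the same total (-0.82). Itgal did not pass (-0.02 ± 0.44, adjusted p = 0.983), nor did Selplg (-0.51 ± 0.43, adjusted p = 0.352) or Cxcl2 (-0.28 ± 0.24, adjusted p = 0.362). The order of control means in marrow was Cxcr4 (204), Itgb2 (193), Selplg (189), Csf3r (178), Itgam (125), Cxcr2 (63.9), Itgal (45.0), Ccr1 (28.1) and Cxcl2 (0.30). The ranges of Cxcr4 and Itgb2 overlapped, as did those of Itgb2 and Selplg and of Selplg and Csf3r. In spleen the order was Selplg (133), Itgb2 (91.8), Cxcr4 (75.4), Itgal (44.9), Csf3r (8.25), Cxcr2 (5.56), Itgam (4.73), Ccr1 (3.05) and Cxcl2 (0.07). There the ranges of Itgb2 and Cxcr4 overlapped, as did those of Cxcr2 and Itgam and of Itgam and Ccr1, while the other neighbours among the first 8 did not. Every spleen control had an Itgb2 value at least 16.2 times its Itgam value, against at most 1.63 times in marrow controls.

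After 1 defeat none of the 9 genes passed in marrow, where 0.00804% of 12442 genes were called (1 gene). Library D17 had the highest Cxcr2 value of its group (92.5, against 65.0, 57.6 and 76.0 in the other libraries and 61.9, 67.1 and 62.6 in controls) and the lowest Csf3r value of all 19 marrow libraries (116). Its summed mature neutrophil markers were 125519, above 63741 to 76572 in the rest of its group. The part of this in the result was not tested.

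**Figure D1:**
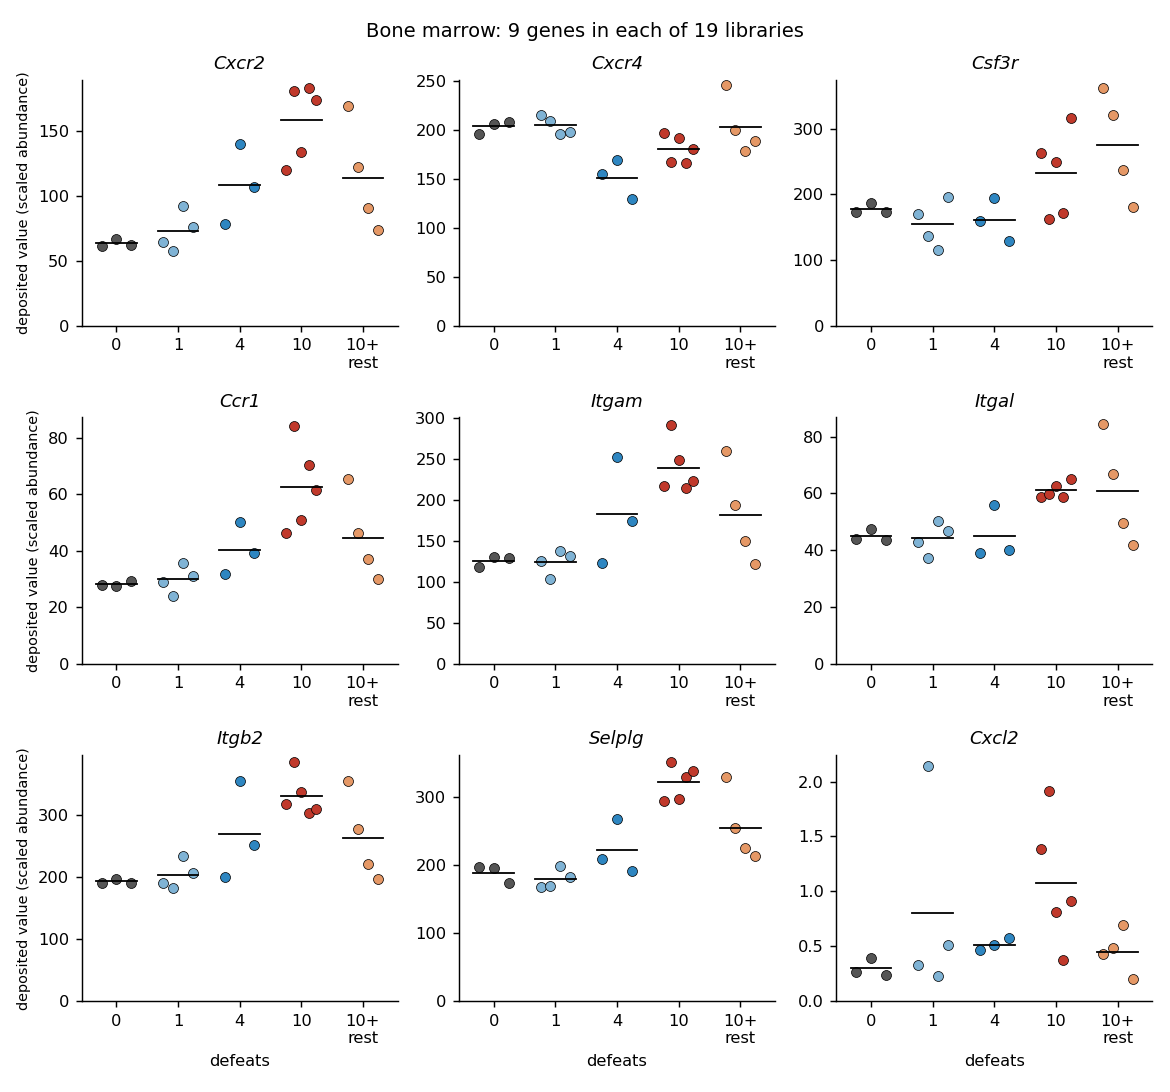
Deposited value (scaled abundance per length, linear axes from 0) of each gene in each of 19 marrow libraries, by number of defeats; each point is 1 library and each line a group mean. All 5 libraries after 10 defeats lie above all 3 controls for Cxcr2 (120 to 184 against 61.9 to 67.1), Ccr1, Itgam, Itgal, Itgb2 and Selplg, while Cxcr4 and Csf3r overlap. The share of all genes that lie apart in this way was not counted.

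In marrow Cxcr2 rose with 10 defeats. Its values were 120, 181, 134, 184 and 174 in libraries D5, D6, D7, D9 and D10, against 61.9, 67.1 and 62.6 in controls. Every defeated library lay above every control. How many of all tested genes lie apart in this way was not counted, in this or any other comparison. Such separation of groups is therefore given as a description only. The difference was 1.28 ± 0.24 log2 units (2.43-fold on the scale of value + 1; adjusted p = 0.000658), and it lay between 1.22 and 1.37 with each library left out in turn. After 4 defeats the values were 78.5, 140 and 107, all above the controls, but the difference of 0.72 ± 0.26 missed the threshold (adjusted p = 0.0613). Of the 6 fits that left out 1 library, it passed only in that without D11, the lowest of the 3 (0.93, adjusted p = 0.0237). It also passed with median-ratio rescaling (0.86, adjusted p = 0.0304). After rest Cxcr2 stood at 170, 123, 90.8 and 74.0 in D1, D2, D3 and D8. All 4 exceeded the controls, with a difference of 0.76 ± 0.25 (adjusted p = 0.216), and they overlapped the 10-defeat group (-0.52 ± 0.22, adjusted p = 0.0904). Of the 9 fits that left out 1 library, the fall from 10 defeats passed only in that without D1, the highest rested library (-0.73, adjusted p = 0.0187). The falls of Itgam (-0.63, adjusted p = 0.0254) and Itgb2 (-0.52, adjusted p = 0.0252) also passed only there.

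Cxcr4 went the other way where it moved. After 4 defeats it read 155, 170 and 130 against 196, 207 and 209 in controls, with no overlap, and fell by 0.43 log2 units (SE 0.12; adjusted p = 0.0194). It was the 1 member of 9 called after 4 defeats, where 20.0% of genes were called in either direction, 1613 of those 2493 genes lower. The call was lost without control C2 (-0.42, adjusted p = 0.0599), control C4 (-0.42, adjusted p = 0.074) or library D14 (-0.33, adjusted p = 0.0883). It was also lost with median-ratio rescaling (-0.29), where Cxcr2 was the 1 member called, and with equal totals (-0.39). After 10 defeats Cxcr4 stood at 197, 168, 192, 166 and 181, of which 1 value reached the control range, and the difference of -0.18 ± 0.11 did not pass (adjusted p = 0.181). It passed with quantile normalization (-0.47, adjusted p = 0.0041). After rest the 4 values of 246, 200, 178 and 189 spanned the control range (-0.01 ± 0.11, adjusted p = 0.969).

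Within a library, the ratio of Cxcr2 to Cxcr4 is free of the library's scaling, though not of trends with transcript length or GC content. It was 0.300 to 0.324 in marrow controls and 0.275 to 0.471 after 1 defeat. It reached 0.507, 0.826 and 0.821 after 4 defeats and 0.612 to 1.11 after 10 defeats, with no overlap with controls in either group. After rest it was 0.690, 0.613, 0.509 and 0.391, again above every control. Ratios are given as descriptions, with no test.

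Csf3r, the G-CSF receptor, did not follow Cxcr2. Its marrow values were 174, 187 and 174 in controls and 263, 163, 249, 172 and 316 in D5, D6, D7, D9 and D10 after 10 defeats. Of these, 3 lay above the controls and 2 below, and the difference was 0.34 ± 0.24 (adjusted p = 0.255). The libraries lowest in Csf3r, D6 and D9, were the highest in Cxcr2 (181 and 184). The ratio of Csf3r to Cxcr2 was 2.78 to 2.81 in controls, 1.25 in D17 after 1 defeat, 1.20 to 2.03 after 4 defeats and 0.900 to 2.18 after 10 defeats. After rest it was 2.14 to 2.62, with Csf3r at 363, 322, 237 and 181. The difference of Csf3r from controls after rest was 0.58 ± 0.25 (adjusted p = 0.313). Values also varied with GC content, by a slope in log2 units per 10 points of GC. D17, D9 and D6 had the lowest slopes of the marrow libraries (-0.232, -0.145 and -0.065). D12 and D14 after 4 defeats, with ratios of 1.38 and 1.20, had 0.011 and 0.026. Csf3r transcripts had 54.8% GC and Cxcr2 transcripts 45.8%. What part these slopes have in the ratio was not tested.

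Ccr1 rose after 10 defeats from 27.7, 27.3 and 29.4 to 46.4, 84.2, 50.9, 70.6 and 61.6. The groups did not overlap, and the difference was 1.10 ± 0.22 (2.14-fold; adjusted p = 0.00116), with 0.98 to 1.20 when single libraries were left out. After 4 defeats the values of 31.8, 50.2 and 39.0 lay just above the controls without passing (0.48 ± 0.25, adjusted p = 0.167). After rest they were 65.4, 46.3, 36.9 and 30.1, all above the controls (0.59 ± 0.23, adjusted p = 0.268). Against 10 defeats, rest gave -0.51 ± 0.20 (adjusted p = 0.0798). Of the 9 fits that left out 1 library, 2 passed, without D1 (-0.71, adjusted p = 0.0166) and without D5 (-0.61, adjusted p = 0.04).

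**Figure D2:**
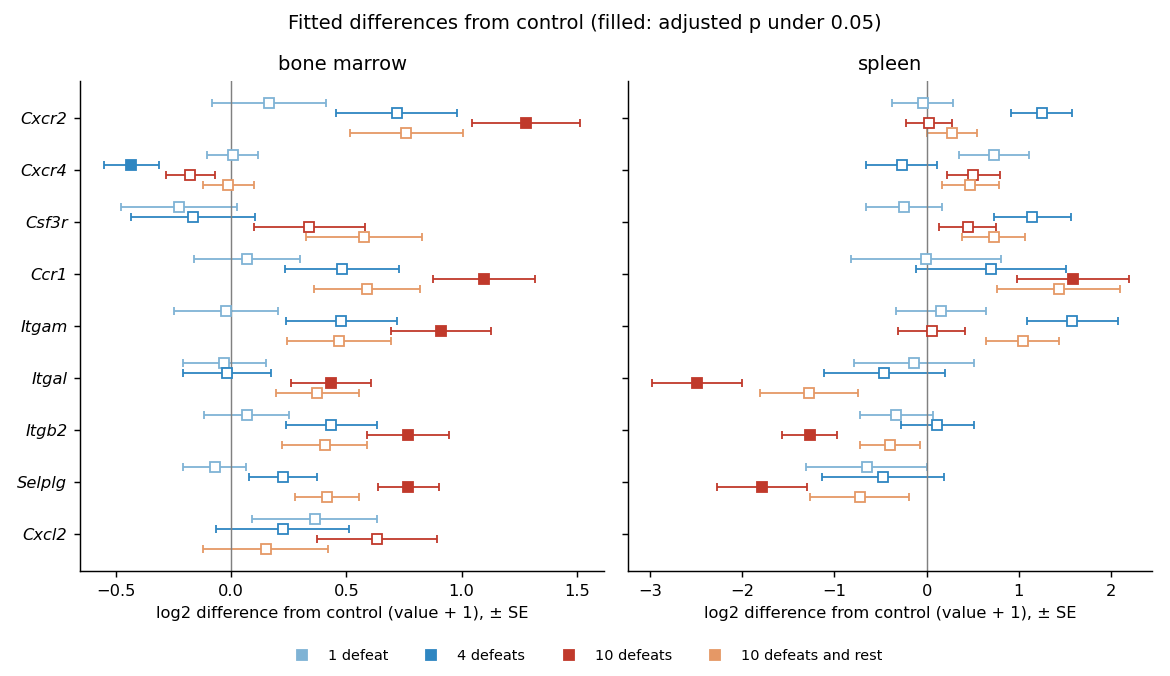
Fitted log2 difference of value + 1 from control (x axis) with its SE for each gene and each defeated group, in marrow (left) and spleen (right, wider axis); filled squares passed the adjusted threshold of 0.05. In marrow 6 squares are filled after 10 defeats, all to the right of 0, and in spleen 4, of which 3 lie to the left; Cxcl2 was below the filter in spleen.

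The integrin chains rose in marrow after 10 defeats, in the order Itgam, Itgb2, Itgal. Itgam, the CD11b chain of Mac-1, read 216, 291, 248, 214 and 223 against 118, 130 and 129, a difference of 0.91 ± 0.22 (1.88-fold; adjusted p = 0.0033). Itgb2, their shared beta chain, went from 191, 198 and 191 to 318, 386, 337, 304 and 310 (0.77 ± 0.18, adjusted p = 0.00272). For both genes all 5 defeated libraries lay above all controls, and the call held with each library left out. Itgal, the CD11a chain of LFA-1, read 58.7, 59.9, 62.8, 58.7 and 65.2 against 44.0, 47.3 and 43.6. These groups did not overlap either, but the difference was smaller and only just passed (0.43 ± 0.17, adjusted p = 0.0482). It passed in none of the 8 fits that left out 1 library (0.41 to 0.47, with C1, C2, C4, D5, D6, D7, D9 or D10 left out), and not with quantile normalization (0.35) or equal totals (0.38). The ratio of Itgam to Itgal was 2.67 to 2.96 in controls, 3.42 to 4.85 after 10 defeats and 2.89 to 3.07 after rest.

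After 4 defeats Itgam stood at 122, 252 and 174 and Itgb2 at 200, 356 and 251, and neither passed (0.48 ± 0.24, adjusted p = 0.163, and 0.43 ± 0.20, adjusted p = 0.122). In both genes D11 was the low library. Of the 6 fits that left out 1 library, both passed only in that without D11 (Itgam 0.73, adjusted p = 0.0357, and Itgb2 0.63, adjusted p = 0.0324). D11 also held more B cell marker signal than the other 2 libraries of its group (summed value 1406 against 458 and 504). Its summed mature neutrophil markers were lower (110700 against 203210 and 130844). The part of this in the result was not tested. Itgal gave -0.02 ± 0.19 after 4 defeats (adjusted p = 0.957).

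Selplg, the selectin ligand on which neutrophils roll, had the lowest adjusted p of the 9 after 10 defeats. It read 295, 353, 298, 330 and 339 against 197, 197 and 173, with no overlap, and rose by 0.77 ± 0.13 (1.70-fold; adjusted p = 0.000414). It was the 1 member called between 4 and 10 defeats (0.54 ± 0.13, adjusted p = 0.0387), where 2.44% of genes were called and 1.66% were higher after 10. It was also the 1 member called between rest and 10 defeats, where it was lower (-0.35 ± 0.12, adjusted p = 0.0459) and where 21.7% of genes were called and 7.91% were lower. Both calls are close to the threshold. The rise from 4 to 10 defeats held only without D12 or D5 among the 8 leave-outs. It was lost without D11 (0.51), D14 (0.44), D6 (0.51), D7 (0.57), D9 (0.54) or D10 (0.53). The fall at rest held only without D5 or D1 among 9. It was lost without D6 (-0.32), D7 (-0.38), D9 (-0.34), D10 (-0.34), D2 (-0.36), D3 (-0.30) or D8 (-0.27). It was lost with quantile normalization (-0.10), where Cxcr4 was the 1 member called (0.38, adjusted p = 0.0236), and with equal totals (-0.15), where none was. With median-ratio rescaling Cxcr2 (-0.63, adjusted p = 0.0479) and Ccr1 (-0.61, adjusted p = 0.0415) passed beside it.

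Cxcl2, the only chemokine gene among the 9, was close to the detection limit. It read 0.27, 0.39 and 0.24 in marrow controls, from an estimated 8.3, 18.1 and 5.6 reads, and 1.38, 1.91, 0.81, 0.38 and 0.91 after 10 defeats, from 57.8, 25.2, 10.4, 7.3 and 18.7 reads. Of these, 4 lay above the controls, and the difference of 0.63 ± 0.26 did not pass (adjusted p = 0.054). It passed without D9 (0.77, adjusted p = 0.0241), and also with quantile normalization (0.83, adjusted p = 0.0213) and median-ratio rescaling (0.68, adjusted p = 0.0436). As deposited, only D5 and D6 after 10 defeats and D16 after 1 defeat reached the value of 1 set by the filter in marrow. Cxcl2 thus entered the test through high values that lay in part in the group compared. No conclusion on a rise is drawn from its passes. Library D16 after 1 defeat read 2.14, the highest of all 37 libraries. In spleen Cxcl2 was below the filter, between 0 and 0.86.

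In all, 6 of the 9 genes were higher in marrow after 10 defeats and none was lower, against 45.8% of 12442 genes called in either direction and 17.5% called higher. The calls over all genes were 2177 higher and 3517 lower, and 2996 and 2409 after median-ratio rescaling. The median difference of the 9 was 0.77, and that of all tested genes was -0.13 (0.01 with quantile normalization). All 6 kept their direction under the 3 other scalings, and all but Itgal passed under each. After rest none of the 9 passed against controls, and neither did any other gene (0% called; limma, smallest adjusted p 0.0723, with 1768 genes at an unadjusted p under 0.05). Other fits called more: 3.09% of genes (96 higher, 288 lower) and no member with only the groups compared, and 20.3% (1050 higher, 1481 lower) with library weights, among them Cxcr2 (0.54), Ccr1 (0.44) and Selplg (0.27). In the fit as reported, the median difference of the 9 genes from controls after rest was 0.41. Among the 4 rested libraries D1 was highest in 8 of the 9 genes and D8 lowest in 8, and 7 genes had the same order of all 4. The summed mature neutrophil markers had that order too: 132828 in D1, 94399 in D2, 89779 in D3 and 83403 in D8.

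Genes listed as mature neutrophil markers moved in the same direction. The list holds the granule genes Camp, Ltf, Ngp and Lcn2, so it does not tell mature neutrophils from maturing ones. After 10 defeats all 15 marker genes were higher in marrow (median 1.30), for example Camp, an antimicrobial peptide of granules, at 1.41 ± 0.20, Ly6g at 1.30 ± 0.20 and S100a9, a subunit of calprotectin, at 1.63 ± 0.25. Cxcr2 (1.28) and Ccr1 (1.10) were nearest to that median, while Itgam (0.91), Itgb2 (0.77), Selplg (0.77), Itgal (0.43), Csf3r (0.34) and Cxcr4 (-0.18) had smaller ones. With quantile normalization 10 of the 15 were higher (median 0.61). Of 9 neutrophil precursor genes 8 were higher, with Prtn3, proteinase 3 of early granules, at 1.76 ± 0.24, Elane, neutrophil elastase, at 1.10 ± 0.23 and Cebpe, the factor that drives granule maturation, at 0.91 ± 0.20. Of 10 monocyte genes 7 were higher and 1 lower. All 10 B cell genes were lower (median -2.87), as were 8 of 10 T cell genes and 8 of 10 erythroid genes. The part of this shift in cell markers in the differences of the members, and of the pathway genes given below, was not tested.

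**Figure D3:**
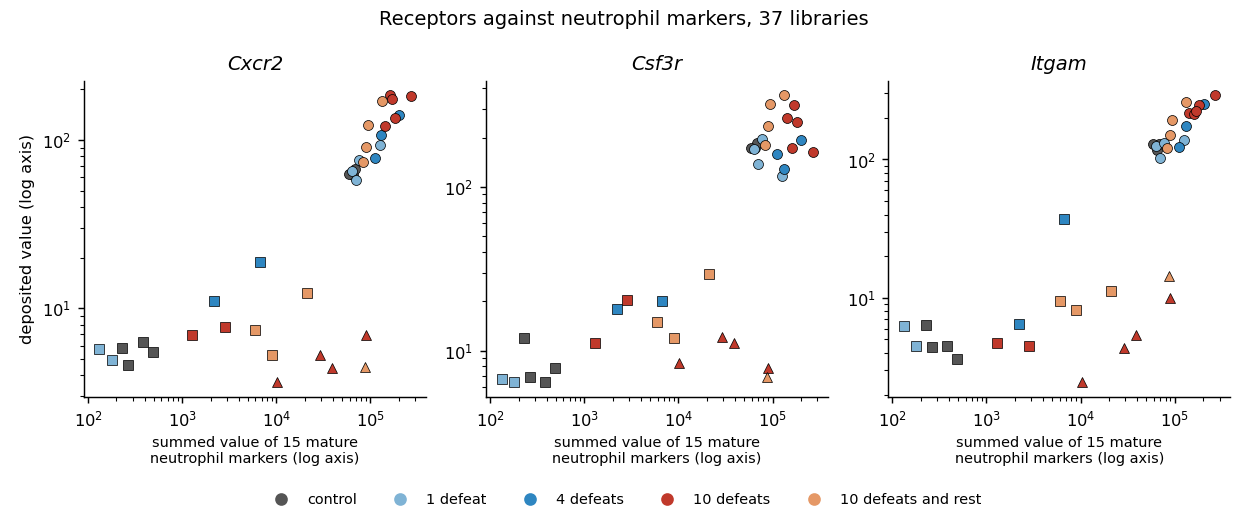
Value of Cxcr2, Csf3r and Itgam (y axis, log scale) against the summed value of 15 mature neutrophil markers (x axis, log scale) in each of 37 libraries; circles are marrow, squares spleen, and triangles the 5 spleen libraries of high total. The triangles have marker sums of 10253 to 90323, of which 2 reach the range of marrow, while their Cxcr2 values of 3.65 to 6.94 lie in or near the range of spleen controls. S100a8 and S100a9 have the highest medians of the 15 markers in both tissues. These genes, Camp and Il1r2 reach their marrow range in spleen, and the other markers do not. Ly6g, Mmp8 and Mmp9 are at most 79.9, 69.6 and 64.3 in spleen and at least 137, 307 and 331 in marrow.

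The partners of these receptors in marrow were read from lists of their pathways, whose counts stand against 45.8% of all tested genes called after 10 defeats, 2177 higher and 3517 lower. Among 6 tested genes of the CXCR4 axis 4 fell and 1 rose after 10 defeats: Foxo1, a transcription factor, by -1.35 ± 0.20, Dpp4, a protease that cuts CXCL12, by -1.89 ± 0.31, and Cd74, a receptor of MIF and MHC class II chaperone, by -2.09 ± 0.49. Cxcl12, the CXCR4 ligand, chosen after its values were seen, also fell: its mean was 86.8 in controls, 28.0 after 10 defeats and 118 after rest. It fell by 1.62 log2 units (SE 0.45; adjusted p = 0.00954) and was higher after rest than after 10 defeats by 2.02 ± 0.42 (adjusted p = 0.00549). At rest 4 of the 6 were higher than after 10 defeats and none lower, against 13.8% and 7.91% of all genes. Cd164, a sialomucin that associates with CXCR4, was the gene that rose (0.34), and it did not pass with quantile normalization or equal totals. The same axis had 3 genes lower after 4 defeats, where 13% of all genes were called lower. Summed B cell markers had means of 2192 in marrow controls and 659 after 10 defeats. What part the loss of B cell signal has in the falls of this axis was not tested.

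Genes of G-CSF receptor signalling gave 7 higher and 1 lower of 13 in marrow after 10 defeats, though the receptor itself did not pass. They included Cebpb, the factor of emergency neutrophil production, at 1.95 ± 0.27, and Socs3, the feedback inhibitor of the receptor, at 1.70 ± 0.27. Cebpe was among them too, the same gene as in the neutrophil precursor list above. Cebpb and Socs3 also rose after 4 defeats (1.42 ± 0.30 and 1.34 ± 0.30). From 10 defeats to rest they fell, by 1.31 and 0.97 log2 units (SE 0.25 and 0.24). The ligand gene Csf3, also chosen after its values were seen, had group means of 0 to 0.03 in marrow and was below the filter.

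Of 13 other leukocyte integrins and partners 4 rose and 4 fell after 10 defeats. Cd177, a neutrophil surface partner of Mac-1 that is also in the mature neutrophil list, rose by 1.29 ± 0.23. Itga9 and Itga4, alpha chains of beta-1 integrins, changed by -0.87 ± 0.17 and -0.62 ± 0.15. Of 15 genes of integrin activation 3 rose and 4 fell, among them Skap2, an adaptor of integrin signalling in neutrophils, at 1.35 ± 0.18, and Vav1, an exchange factor, at 0.67 ± 0.13, against Cyth1, a cytohesin, at -0.66 ± 0.12. With median-ratio rescaling 7 rose and 3 fell. Of 7 integrin ligands 1 rose (F11r, the junction protein JAM-A, 1.20 ± 0.31) and 2 fell (Icam2, -0.63 ± 0.12, and Icam4, -0.97 ± 0.34). Selectins and the enzymes that decorate their ligands gave 6 higher and 2 lower of 13, and 2 and 2 with equal totals. They included Adam17, the sheddase of L-selectin, at 0.47 ± 0.10, Cd44, a selectin-binding receptor, at 0.78 ± 0.19, and the sialyltransferase St3gal6 at -1.05 ± 0.29.

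Of 6 genes of CCR1 ligands 2 rose after 10 defeats, Ccl9 (0.89 ± 0.17) and Ccl3 (1.15 ± 0.44). Of 3 tested genes of CXCR2 ligands, Cxcl2 among them, 1 rose, Mif (0.49 ± 0.19). The platelet chemokine gene Ppbp was higher at rest than after 10 defeats (2.31 ± 0.51). All 8 megakaryocyte markers were higher there too, against 13.8% of all genes. Other chemoattractant receptors split into 8 higher and 9 lower of 21. The 3 with the smallest p were lymphocyte receptors and fell: S1pr1 (-2.11 ± 0.26), Cxcr5 (-1.88 ± 0.24) and Ccr6 (-1.52 ± 0.22). Genes that desensitise receptors or carry their G protein signal gave 8 higher and 1 lower of 16. Among them were Rgs19, which turns off G alpha subunits, at 0.94 ± 0.16, and the G protein subunits Gnb2 and Gnai2 at 0.61 ± 0.12 and 0.60 ± 0.12. With quantile normalization 4 were higher and 2 lower.

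**Figure D4:**
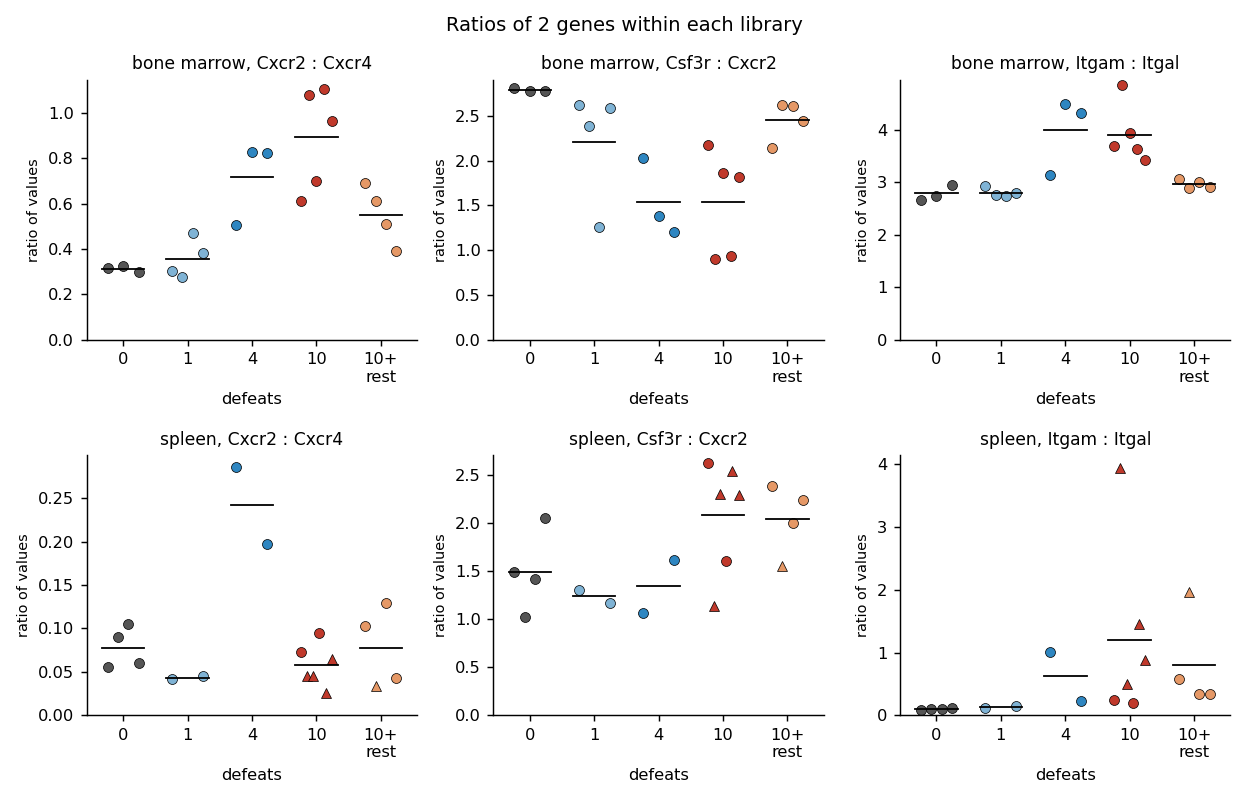
Ratio of the values of 2 genes in the same library (y axis, from 0) by number of defeats, for Cxcr2 to Cxcr4, Csf3r to Cxcr2 and Itgam to Itgal in marrow (top) and spleen (bottom); points are libraries, triangles the 5 spleen libraries of high total, lines group means. In marrow Cxcr2 to Cxcr4 is 0.300 to 0.324 in controls and 0.612 to 1.11 after 10 defeats; in spleen the highest ratios, 0.286 and 0.197, belong to the 2 libraries after 4 defeats.

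In spleen none of 8 tested members passed after 1 defeat (0.688% of 13945 genes called) or after 4 defeats (0.043% called). Only 2 libraries stood in each of these groups. After 4 defeats Cxcr2 read 18.9 in D13 and 11.1 in D14, both above the controls of 4.63, 6.29, 5.52 and 5.79 (1.25 ± 0.33, adjusted p = 0.189). Without the 5 libraries of high total it passed (adjusted p = 0.0443), where 1.63% of genes were called. None of the 5 belongs to the groups compared, so the difference was the same and only the spread estimated over all spleen groups changed. Csf3r read 20.1 and 17.95 against 6.41 to 11.9 (1.15 ± 0.41, adjusted p = 0.353). Itgam was high in D13 alone, with 37.05 against 6.49 in D14 and 3.58 to 6.41 in controls (1.58 ± 0.49, adjusted p = 0.269). Without D14, which leaves 1 library assumed to vary like the other groups, Itgam passed (2.75, adjusted p = 0.0066). D13 also had 142 for Itgb2 and the highest Mmp8 value of the spleen libraries (69.6). After 1 defeat Cxcr4 read 120 and 126, above the controls of 52.5 to 95.3 (0.73 ± 0.38, adjusted p = 0.388). Selplg (-0.65) passed after 1 defeat without the 5 libraries (adjusted p = 0.0309, 12.5% of genes called) and with only the groups compared (adjusted p = 0.0419, 11.8% called). There too the difference was unchanged and only the estimated spread differed. The 1-defeat libraries D15 and D16 had GC slopes of -0.36 and -0.349, against -0.001 to 0.261 in spleen controls. Spleen D6 and D9 after 10 defeats had -0.345 and -0.337. Selplg transcripts had 55.0% GC, the highest of the 9 genes. What part this has in the result was not tested.

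After 10 defeats 4 of 8 members passed in spleen, 1 higher and 3 lower, against 58.8% of genes called, 16.8% higher and 41.9% lower. Itgal fell most. It read 17.9, 2.51, 4.87, 24.7, 3.69 and 4.90 in D5, D6, D7, D4, D9 and D10 against 48.1, 45.2, 34.2 and 52.2 in controls. The groups did not overlap, and the difference was -2.49 ± 0.49 (adjusted p = 0.000998), with -2.83 to -2.25 when single libraries were left out. The 4 libraries of high total held the 4 lowest values. Without the 5 libraries the fall was -1.04 (adjusted p = 0.00686), from D4 and D5 alone. That fit called 23.1% of all genes, 1168 higher and 2052 lower, and 2 of the 8 members. Selplg fell by 1.79 log2 units (SE 0.49; adjusted p = 0.00658), from 106 to 146 in controls to between 15.1 and 96.6, and by 0.61 without the 5 libraries (adjusted p = 0.0269). Itgb2 fell by 1.27 (SE 0.30; adjusted p = 0.00264), from 82.1 to 104 to between 26.3 and 73.5. Without the 5 libraries it did not pass (-0.58, adjusted p = 0.101).

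Ccr1 was the member that rose in spleen after 10 defeats, and this rested on the libraries of high total. It read 53.7 in D6, 28.0 in D9, 11.4 in D10 and 6.37 in D7, but 3.86 in D5 and 3.47 in D4, against 2.57 to 3.66 in controls. The difference was 1.59 ± 0.61 (adjusted p = 0.0341) with all libraries and 0.21 without the 5 (adjusted p = 0.624). It was also lost with control C1 (1.53), C2 (1.66), C3 (1.60) or C4 (1.55) left out, with D6 (1.15), D9 (1.33) or D10 (1.58) left out, and with equal totals (0.93). Rescaling moved all genes in this comparison: the median difference was -0.36 as deposited, 0.01 after median-ratio rescaling and -0.84 with equal totals. The calls were 2348 higher and 5848 lower as deposited, 3930 and 3448 after median-ratio rescaling, and 794 and 7334 with equal totals. The falls of Itgal, Selplg and Itgb2 kept their direction and passed under each of these scalings and under quantile normalization (-3.08 to -2.07, -2.50 to -1.32 and -1.99 to -0.80).

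Cxcr2, Csf3r and Itgam did not pass in spleen after 10 defeats in the values as deposited. Cxcr2 ranged from 3.65 to 7.76 with a median of 6.09 (0.03 ± 0.25, adjusted p = 0.931), Csf3r from 7.87 to 20.4 with a median of 11.1 (0.44 ± 0.31, adjusted p = 0.223), and Itgam from 2.46 to 9.93 with a median of 4.60 (0.05 ± 0.36, adjusted p = 0.908). Each overlapped the controls. Csf3r passed with quantile normalization (0.82, adjusted p = 0.0177; 51.2% of genes called) and with median-ratio rescaling (0.87, adjusted p = 0.0168; 53.2% called). In the same libraries 12 of the 15 genes listed as mature neutrophil markers rose (median 3.05), and 8 of 15 without the 5 libraries (median 1.70). The summed markers were 1284 and 2836 in D4 and D5 and 10253 to 90323 in the 4 libraries of high total, against 228 to 484 in controls. Of 9 precursor genes 8 rose, with and without the 5 libraries (medians 4.20 and 2.98): Elane had a mean of 1.71 in controls and 133 after 10 defeats. The defining surface marker Ly6g reached 2.31 to 39.0, against 0.15 to 0.62 in controls and 137 to 158 in marrow controls. Cxcr4 read 73.2 to 172 with a median of 93.8 (0.51 ± 0.29, adjusted p = 0.133), highest in D9 and D6, and it passed with median-ratio rescaling (0.98, adjusted p = 0.0205).

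All 10 B cell and 9 of 10 T cell markers fell in spleen after 10 defeats, the genes whose cells also express Itgal, Itgb2 and Selplg. Summed B cell markers were 1297 to 3018 in the 4 libraries of high total, 5189 and 7589 in D5 and D4, and 7399 to 9979 in controls. Without the 5 libraries, in a fit that called 23.1% of all genes, 4 B cell and 8 T cell markers fell. Against the 58.8% of all genes called with all libraries, 11 of 15 genes of integrin activation fell and none rose (5 and none without the 5 libraries). Examples were Tln1, talin, which opens the integrin head, at -1.83 ± 0.40, Vav1 at -1.82 ± 0.41 and Pik3cg, a lipid kinase, at -1.85 ± 0.42. Of 9 integrin ligands 8 fell and 1 rose, and 5 and 1 without the 5 libraries: the rise was Icam4, a protein of red cell precursors (3.61 ± 0.52), beside falls of Madcam1, the mucosal addressin (-1.65 ± 0.30), and Jam3 (-1.18 ± 0.22). Of 13 G-CSF receptor signalling genes 8 fell and 1, Cebpe, which is also in the precursor list, rose (2.97 ± 0.53). Without the 5 libraries 1 fell and 1 rose. Of 7 genes of the CXCR4 axis 6 fell and 1 rose, against 2 and 1 without the 5 libraries. What part the markers, the totals or the length slopes have in these falls was not tested.

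**Figure D5:**
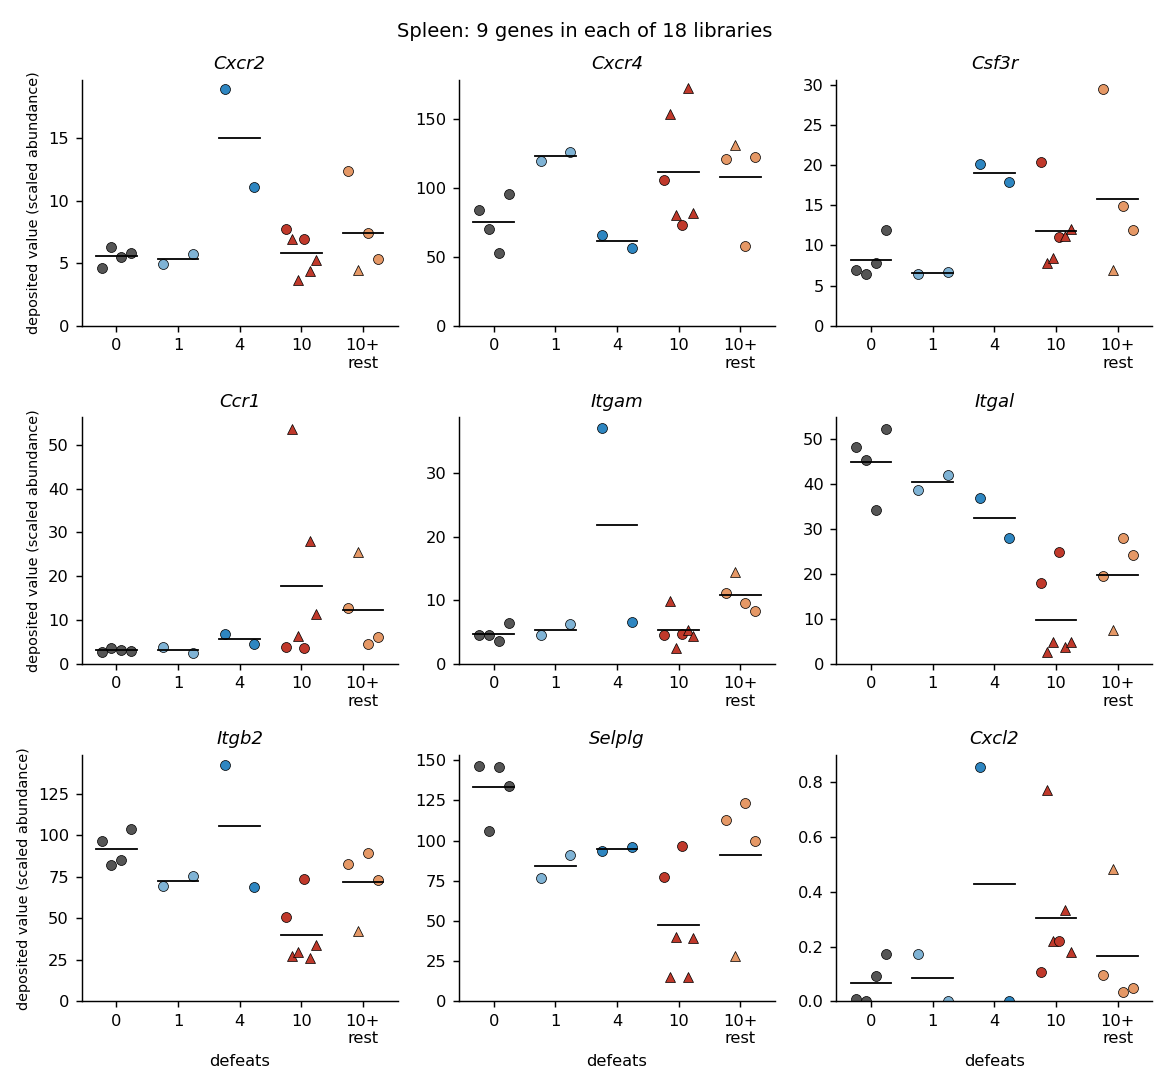
Deposited value (scaled abundance per length, linear axes from 0) of each gene in each of 18 spleen libraries, by number of defeats; triangles mark the 5 libraries of high total and lines are group means. After 10 defeats Itgal, Itgb2 and Selplg lie below every control, lowest in the triangles, and every Ccr1 value above 3.86 in that group is a triangle. The share of all genes below every control was not counted.

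At rest no member passed in spleen against controls (7.26% of genes called) or against 10 defeats (0.567% called). Itgam read 11.2, 14.5, 9.46 and 8.20, all above the controls of 3.58 to 6.41 (1.04 ± 0.40, adjusted p = 0.107). Itgal read 19.4, 7.37, 27.8 and 24.2, all below the controls (-1.28 ± 0.53, adjusted p = 0.131). Csf3r read 29.5 in D1, 14.9 in D3 and 11.9 in D8, and 6.93 in D2, the library of high total (0.73 ± 0.34, adjusted p = 0.166). Without the 5 libraries 16.1% of genes were called, 754 higher and 1495 lower, and 3 members passed: Csf3r was higher (1.03, adjusted p = 0.034), Ccr1 was higher (1.00, adjusted p = 0.0265) and Itgal was lower (-0.89, adjusted p = 0.0106). Against 10 defeats, Itgal (1.22 ± 0.49) and Itgb2 (0.87 ± 0.30) passed without D4 (1.55, adjusted p = 0.0264, and 1.06, adjusted p = 0.0201) and in no other fit that left out 1 library. With library weights Itgal, Itgb2, Selplg and Itgam passed, among 60.0% of all genes. In the rested spleens 12 of 15 mature neutrophil markers were higher than in controls, also without the 5 libraries.

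Between 4 and 10 defeats 4 of 8 members fell in spleen, against 15.3% of genes called and 11.2% lower. They were Cxcr2 (-1.22 ± 0.31, adjusted p = 0.0337), Itgb2 (-1.39 ± 0.37, adjusted p = 0.0353), Itgal (-2.03 ± 0.62, adjusted p = 0.0433) and Itgam (-1.53 ± 0.46, adjusted p = 0.0433). None passed without the 5 libraries (-0.90, -0.69, -0.58 and -1.59). None passed after median-ratio rescaling either (-0.86, -0.99, -1.67 and -1.17). None passed without D13 of the 2 libraries after 4 defeats (-0.86, -0.87, -1.84 and -0.36), or with D6, D7, D9 or D10 left out (-1.27 to -1.12, -1.36 to -1.29, -1.94 to -1.79 and -1.71 to -1.38). Itgal was also lost without D14 (-2.23), and Selplg passed without D4 (-1.58, adjusted p = 0.0352).

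The effect of 10 defeats differed between the tissues for 4 of the 9 genes, each lower in spleen relative to marrow, against 43.1% of 14513 genes called in either direction and 27.0% lower. This interaction was -2.92 ± 0.56 for Itgal (adjusted p = 0.000163), -2.56 ± 0.55 for Selplg (adjusted p = 0.000553), -2.04 ± 0.36 for Itgb2 (adjusted p = 6.94e-05) and -1.25 ± 0.35 for Cxcr2 (adjusted p = 0.00527). All 4 held with each of 18 libraries left out. Without the 5 spleen libraries Itgal (-1.48), Selplg (-1.37) and Itgb2 (-1.34) still passed, and Cxcr2 did not (-0.93, adjusted p = 0.0579). Cxcr2 was also lost with quantile normalization (-0.61). Csf3r, Ccr1, Itgam, Cxcr4 and Cxcl2 did not pass (0.11 ± 0.41, 0.49 ± 0.70, -0.86 ± 0.45, 0.69 ± 0.32 and -0.36 ± 0.31). Cxcr4 passed in 1 of the 18 fits that left out 1 library, that without spleen D4 (0.79, adjusted p = 0.0355). It also passed with median-ratio rescaling (0.88, adjusted p = 0.0459), and Itgam with equal totals (-1.40, adjusted p = 0.0344).

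The step from 10 defeats to rest differed between the tissues for 2 of the 9, Itgam (1.43 ± 0.43, adjusted p = 0.0313) and Itgb2 (1.23 ± 0.35, adjusted p = 0.0231). Both were higher in spleen relative to marrow, against 10.2% of genes called and 4.82% higher. Neither passed without the 5 spleen libraries (1.36, adjusted p = 0.0666, and 0.77, adjusted p = 0.0895), where 13.3% of genes were called and Ccr1 (1.30, adjusted p = 0.0231) and Selplg (0.72, adjusted p = 0.0236) passed instead. Nor did they pass with equal totals (1.24 and 1.10) or with quantile normalization (1.02 and 0.92). Itgam was lost without marrow D6 (1.36), D3 (1.36) or D8 (1.26) or spleen D7 (1.28) or D1 (1.41). Itgb2 was lost without marrow D3 (1.16) or D8 (1.11) or spleen D1 (1.15) or D3 (1.11). Itgal (1.27 ± 0.54, adjusted p = 0.124) and Selplg (1.42 ± 0.53, adjusted p = 0.0818) missed the threshold. Each passed in 3 of the 19 fits that left out 1 library, without spleen D4 (1.61 and 1.68), D5 (1.52 and 1.62) or D2 (1.66 and 1.90).

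Genes with the most similar pattern were sought among 11105 genes by the root mean square gap between their 8 fitted differences from control, 4 in each tissue, all of which share the control libraries. For Cxcr2 they were Acot1 (0.18), Tarm1 (0.19) and Tlr2 (0.21), and for Ccr1 Gda (0.18), Ccl9 (0.21), a CCR1 ligand, and Trem1 (0.22). Itgam was nearest to Gsr (0.22), Mmp25 (0.25), a neutrophil protease and 1 of the 15 markers, and Dhrs9 (0.28), and Csf3r to Serpina3b (0.27), Dhrs9 (0.27) and Cpne2 (0.27). Itgal was nearest to Plcg2 (0.14), Fgd3 (0.15) and Rin3 (0.17), Itgb2 to Anxa5 (0.10), Vasp (0.10) and Septin9 (0.11), and Selplg to Nherf1 (0.14), Psap (0.15) and Lpcat4 (0.16). Cxcr4 was nearest to Zfp729b (0.08), Mier1 (0.11) and Zfp97 (0.11).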

How the data were processed

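RNA was measured by polyA RNA-seq in 19 bone marrow and 18 spleen libraries, grouped by the submitters' labels. Per the submitters' processing notes, reads were processed with kallisto 0.46.1 and sleuth against GRCm38. The values the authors deposited are a scaled abundance signal per gene and per length, not read counts; the sources used here do not state the scaling. Labels do not say whether libraries came from separate animals, or whether marrow and spleen share them, so p-values measure the spread between libraries.

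Values were compared as log2(value + 1) by limma (version 3.58.1; R version 4.3.3), whose variance prior was trended and robust. For each gene, all groups of a tissue, or of both tissues when these were compared, shared the same estimate of the spread. A gene was tested when at least 3 marrow or 2 spleen libraries (2 for both tissues) had a value of 1 or more. Adjusted p-values are Benjamini-Hochberg values over all genes tested in a comparison, and the threshold was 0.05. There were 15 comparisons; fold changes are on the value + 1 scale and understate low genes. The fit was tested on simulated data. Estimated reads come from the steps between low values in genes of 1 transcript, with a fragment length of 200 bases assumed. Between 58.6% and 75.3% of low values lay within 0.1 of a whole read, so no count test was run. The 9 genes and all gene lists were chosen with earlier results of these data known. All 9 were named, with up to 3 called genes of the smallest p per list and comparison, and the 3 nearest genes by pattern, leaving out pseudogenes and genes without a proper symbol. Alternatives were quantile, median-ratio and equal-total scaling, a pseudocount of 0.1, no filter, library weights, only the groups compared, a replicate block and each library left out; leaving out 5 spleen libraries and removing length and GC trends were added after seeing the data.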

Additional observations from a re-analysis of the deposited data

Results flagged for a closer look

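In 5 of the 54 groups of 4 to 6 libraries that were checked, 1 library lay far from its group by Dixon's test, which chance alone gives in about 1 of 20 groups. Cxcr4 in spleen D3 after rest was 57.7, and the next lowest of the 4 was 120.6. Csf3r in spleen D5 after 10 defeats was 20.4, and the next highest of the 6 was 12.1. The other 3 were Cxcl2 values near the detection limit: 2.14 in marrow D16 after 1 defeat (next 0.51), 0.77 in spleen D6 after 10 defeats (next 0.33) and 0.48 in spleen D2 after rest (next 0.10).

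The effect of 10 defeats differed between spleen and marrow by the interaction in limma for Cxcr2 (-1.25), Itgal (-2.92), Itgb2 (-2.04) and Selplg (-2.56). The step from 10 defeats to rest differed for Itgam (1.43) and Itgb2 (1.23).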

How the results depend on the processing

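Of 2319 differences of single members under the alternatives, 2127 kept their side of the threshold, 110 lost a call, 82 gained one and 0 reversed a called direction. Among the 2127 were 106 that passed in neither setting and changed sign. Most member results were not called as reported and had no call to lose, so the 110 losses fell on the fewer called ones. The 2127 are thus no measure of how stable the calls are. The number of members called is given here where it moved by more than 1.5 times. For marrow, 4 defeats against controls gave 1 call as reported, 0 with equal totals, 5 with library weights, 2 with only the groups compared, 2 with length and GC trends removed, and 0 to 4 with single libraries left out. Rest against controls gave 0, and 3 with weights. Rest against 10 defeats gave 1, but 3 with median-ratio rescaling, 0 with equal totals, no filter or only the groups compared, 5 with weights, and 0 to 5 with libraries left out. The comparison of 10 with 4 defeats gave 1, but 0 with quantile normalization, equal totals, no filter or only the groups compared, 4 with weights, and 0 to 1 with libraries left out. For spleen, 1 defeat gave 0, and 1 with only the groups compared or without the 5 libraries of high total. Spleen after 4 defeats gave 0, and 1 with weights, without the 5 libraries or at most with single libraries left out. Spleen after 10 defeats gave 4, and 2 without the 5 libraries, where 23.1% of all genes were called. Spleen rest against controls gave 0, but 1 with quantile normalization or only the groups compared, 4 with weights and 3 without the 5 libraries; rest against 10 defeats gave 0, but 4 with weights and 0 to 2 with libraries left out. Spleen 10 against 4 defeats gave 4, but 2 with quantile normalization, 0 with median-ratio rescaling, no filter, only the groups compared or without the 5 libraries, and 0 to 5 with single libraries left out. The rest step between tissues gave 2, but 0 with quantile normalization or equal totals, 1 with no filter, only the groups compared or trends removed, 5 with weights, and 0 to 4 with libraries left out. Marrow after 10 defeats gave 5 to 6 calls with libraries left out. With library weights the share of all genes called rose too, from 20.0% to 38.5% in marrow after 4 defeats, 0% to 20.3% at marrow rest, 21.7% to 38.6% for marrow rest against 10 defeats, 0.043% to 2.38% in spleen after 4 defeats, 7.26% to 31.7% at spleen rest, 0.567% to 60.0% for spleen rest against 10 defeats and 10.2% to 51.9% for the rest step between tissues. For marrow 10 against 4 defeats the genes called went from 206 higher and 98 lower to 839 and 659. The causes were not tested. Over all genes the split of higher and lower calls moved with the scaling: after 4 defeats in marrow it was 880 and 1613 as deposited but 1500 and 1021 with median-ratio rescaling, at marrow rest against 10 defeats 1716 and 984 but 1151 and 1495, in spleen between 4 and 10 defeats 574 and 1566 but 768 and 447, and for the 10-defeat interaction 2330 and 3919 but 946 and 4487 with equal totals. A spleen group of 2 left with 1 library is assumed to vary like the others.

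With the label number as a replicate block, the tissue comparison gave 6 calls (6 without it), the 10-defeat interaction 5 (4 without it) and the rest step 4 (2 without it). Same-numbered libraries of the tissues correlated by -0.20 to 0.35 over 15 pairs, 5 of them over 0.1. Such a correlation between different tissues cannot settle whether they share animals. The main fits had no block because the labels do not state a pairing.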
